A study of Mus musculus with 206 samples.

Results

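Potassium channel genes were taken as the protein-coding genes of mm10 (GENCODE M21) whose symbols start with Kcn, which gave 94 of 21829 genes. Their H3K27ac regions were those consensus regions of each brain region that lay inside a Kcn gene body, or whose nearest transcription start site (TSS) within 100 kb was that of a Kcn gene. This gave 235 of 18272 regions in prefrontal cortex (PFC), 236 of 16201 in hippocampus, 163 of 13788 in hypothalamus and 740 of 60013 in striatum. H3K27ac, an acetyl mark of active promoters and enhancers, was profiled by MOWChIP-seq, a microfluidic chromatin immunoprecipitation, with about 10000 NeuN+ nuclei per library and 1 library per animal and brain region. The mice were C57BL/6NTac of both sexes. Dams carried minipumps with morphine at 10 mg/kg per day or saline through gestation. Their pups received morphine injections of 10 mg/kg or saline from postnatal day 1 to 14, and as adults were challenged with lipopolysaccharide (LPS, a bacterial cell wall component that sets off inflammation) or saline 2 h before tissue collection. The 4 groups were SAL-SAL (saline, then saline), MOR-SAL (perinatal morphine, then saline), SAL-LPS (perinatal saline, then LPS) and MOR-LPS, which had both. In that order they held 8, 9, 11 and 14 libraries in PFC, 11, 11, 12 and 10 in hippocampus, 8, 12, 11 and 10 in hypothalamus, and 10, 7, 13 and 15 in striatum. Every group had pump-bearing dams, surrogate dams from birth, repeated injections as pups and 1 injection as adults. Possible litters (the number before the dash in the animal labels) were nested in the perinatal treatment.

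Potassium channels set the resting potential of neurons and end their action potentials. Voltage-gated (Kv) pores open on depolarisation. Calcium- and sodium-activated pores follow ions that enter during firing, inward rectifiers include the GIRK channels opened by opioid and other G protein-coupled receptors, and two-pore domain channels carry leak current. Auxiliary subunits (the Kcnab, Kcne, Kcnip and Kcnmb genes) set the gating and surface levels of the pores. By symbol the 94 genes comprised 40 voltage-gated pore genes, 17 auxiliary genes, 15 inward rectifiers, 14 two-pore domain channels and 8 calcium- or sodium-activated channels.

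The deposited lists held peaks without read counts. Each consensus region was therefore ranked among all regions of a library, from 0 (lowest) to 100, by the −log10 p of its strongest overlapping peak. Regions without a peak shared the mean of their ranks, so a longer list places them lower. As a library pools nuclei, fewer nuclei with the mark and less mark per nucleus cannot be told apart. Lists held 11306 to 143527 peaks in PFC, 13021 to 143124 in hippocampus, 20170 to 135368 in hypothalamus and 10811 to 109977 in striatum. A peak of the 10000 strongest lay within 1 kb of a TSS of Rbfox3, the gene for the sorted antigen NeuN, in 81.8% of libraries from hippocampus, 71.4% from PFC, 53.3% from striatum and 43.9% from hypothalamus. For the list of 14 neuronal markers the median share with such a peak was 46.4%, 57.1%, 42.9% and 35.7% in the same order. The oligodendrocyte gene Mbp had such a peak in 22.2% (striatum) to 38.6% (hippocampus) of libraries. The 9 astrocyte markers had a median share of 0 in each brain region, with highest values of 44.4% in PFC, 11.1% in hippocampus and 22.2% in hypothalamus and striatum. The 9 microglial markers also had a median share of 0, with a highest value of 11.1%. The striatal marker Drd1 had one in 31.1% of striatum libraries but also in 69.0% of PFC libraries, Drd2 had one in 0 of 45 striatum libraries, and the list of 10 hypothalamic markers had a median share of 0 in hypothalamus. Over 10 striatal markers the median share was 40% in PFC and 20% in striatum. Of all promoters, a median of 16.7% per library had such a peak in PFC and 11.3% in striatum. Over 8 cortical markers the median share was 25% in PFC and hippocampus, 12.5% in striatum and 0 in hypothalamus. Over 8 hippocampal markers it was 25% in hippocampus and 12.5% in each other brain region. The striatal and hypothalamic markers do not set striatum and hypothalamus apart as labelled. The brain region labels are therefore in some doubt, and every comparison between brain regions takes them as given. In 12 of 172 libraries at least 4 of 12 oligodendrocyte marker promoters (Mbp, Mog and others) had such a peak. These 12 are called oligodendrocyte-marked below. They numbered 2 of 42 in PFC, 1 of 44 in hippocampus, 2 of 41 in hypothalamus and 7 of 45 in striatum, where 5 of the 15 MOR-LPS libraries were among them, against 1 of 13 SAL-LPS libraries.

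Sequences at some of the regions behind the treatment results are given here in GRCm38 (mm10) coordinates. Other called regions, among them the Kcnn2 promoter in hypothalamus, are not printed. The printed sequences run 5′ to 3′ on the strand stated, with motif matches in capitals. The first 5 are windows of 300 bases around the median peak summit of hypothalamic regions that ranked lower in MOR-LPS, on the plus strand: Kcnb2 at chr1:15683351-15683650, Kcnj5 at chr9:32292767-32293066, Kcnh2 at chr5:24344366-24344665, Kcnc1 at chr7:46459002-46459301 and Kcnk2 at chr1:189228493-189228792.
Kcnb2 intron window: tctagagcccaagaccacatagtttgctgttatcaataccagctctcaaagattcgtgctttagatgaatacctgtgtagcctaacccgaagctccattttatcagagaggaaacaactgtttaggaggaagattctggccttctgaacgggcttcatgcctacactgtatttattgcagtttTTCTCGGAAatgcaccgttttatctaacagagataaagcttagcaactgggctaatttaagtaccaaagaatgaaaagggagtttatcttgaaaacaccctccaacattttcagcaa
Kcnj5 intergenic window: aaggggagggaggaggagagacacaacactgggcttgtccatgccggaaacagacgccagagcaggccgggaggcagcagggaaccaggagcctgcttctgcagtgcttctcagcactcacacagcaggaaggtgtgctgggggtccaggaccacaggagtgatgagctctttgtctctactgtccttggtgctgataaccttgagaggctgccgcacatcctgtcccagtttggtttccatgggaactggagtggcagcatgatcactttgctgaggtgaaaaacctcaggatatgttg
Kcnh2 intron window: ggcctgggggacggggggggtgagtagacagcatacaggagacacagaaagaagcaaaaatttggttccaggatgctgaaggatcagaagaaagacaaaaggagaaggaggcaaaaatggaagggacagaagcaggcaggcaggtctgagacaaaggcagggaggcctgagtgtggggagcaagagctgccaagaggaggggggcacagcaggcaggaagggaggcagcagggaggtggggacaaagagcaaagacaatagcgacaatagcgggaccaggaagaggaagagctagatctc
Kcnc1 window, in an intron of Sergef: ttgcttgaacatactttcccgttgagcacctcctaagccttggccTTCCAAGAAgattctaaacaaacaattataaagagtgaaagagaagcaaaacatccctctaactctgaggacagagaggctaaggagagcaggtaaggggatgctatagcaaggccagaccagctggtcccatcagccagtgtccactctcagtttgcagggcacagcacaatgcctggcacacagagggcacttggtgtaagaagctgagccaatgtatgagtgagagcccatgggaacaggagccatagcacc
Kcnk2 intron window: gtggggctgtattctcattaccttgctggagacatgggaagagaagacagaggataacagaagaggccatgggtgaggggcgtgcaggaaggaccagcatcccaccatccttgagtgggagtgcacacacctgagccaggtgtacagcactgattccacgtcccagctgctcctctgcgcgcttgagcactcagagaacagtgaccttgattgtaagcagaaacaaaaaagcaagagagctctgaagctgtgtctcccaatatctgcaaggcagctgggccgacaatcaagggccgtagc
The other 3 are promoters, from 250 bases before to 50 after the TSS: Kcnj10 at chr1:172340960-172341259 (plus strand) and Kcnk13 at chr12:99964249-99964548 (plus strand), both from RefSeq and both in striatal regions that ranked higher in MOR-LPS, and Kcnip4 at chr5:48889508-48889807 (minus strand, from the GENCODE TSS), in a hypothalamic region that ranked lower.
Kcnj10 promoter: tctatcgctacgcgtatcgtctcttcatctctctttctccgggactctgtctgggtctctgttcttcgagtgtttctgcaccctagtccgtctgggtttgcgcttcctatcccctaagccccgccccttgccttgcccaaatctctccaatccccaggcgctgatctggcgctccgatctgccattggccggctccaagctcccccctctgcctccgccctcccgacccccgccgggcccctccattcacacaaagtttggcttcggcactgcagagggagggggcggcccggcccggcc
Kcnk13 promoter: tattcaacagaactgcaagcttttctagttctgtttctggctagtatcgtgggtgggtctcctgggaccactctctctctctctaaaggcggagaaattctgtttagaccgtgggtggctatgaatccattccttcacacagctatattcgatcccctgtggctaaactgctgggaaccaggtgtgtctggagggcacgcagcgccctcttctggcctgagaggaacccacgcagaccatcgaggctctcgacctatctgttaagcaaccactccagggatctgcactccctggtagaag
Kcnip4 promoter: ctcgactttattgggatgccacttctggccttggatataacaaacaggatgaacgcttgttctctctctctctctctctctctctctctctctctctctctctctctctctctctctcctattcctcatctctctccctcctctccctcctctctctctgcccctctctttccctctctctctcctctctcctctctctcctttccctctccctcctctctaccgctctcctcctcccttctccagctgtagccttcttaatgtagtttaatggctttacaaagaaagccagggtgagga
The Kcnj10 promoter was 63.7% G or C with 21 CpG sites, and the Kcnk13 promoter 52.7% with 9 CpG sites, against medians of 52.7% and 7 over 32851 RefSeq promoters of the same length. The Kcnip4 promoter held an unbroken CT repeat of 56 bases. The Kcnb2 window was 40.3% G or C and the other 4 windows 50% to 56.3%, against a median of 50.3% over 13787 hypothalamic windows.

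Motifs were searched on both strands as AP-1 (TGANTCA), CRE (TGACGTCA), NF-kB (GGGA and CC with any 4 bases between), STAT (TTCNNNGAA) and MEF2 (CTA and TAG with any 4 bases between). Among the 8 printed sequences, only the Kcnb2 and Kcnc1 windows held a match, each to STAT, at base 184 and base 46 from the 5′ end. A STAT match lay in 14 of the 163 Kcn windows of the hypothalamus (8.59%), and in 8.02% of all hypothalamic windows and 8.3% of RefSeq promoters. AP-1 matches lay in 15 Kcn windows (9.2%) against 9.41% of all windows and 7.81% of promoters. For NF-kB the Kcn count was 27 (16.6% against 16.7% and 20.7%), for MEF2 6 (3.68% against 4.15% and 3.69%) and for CRE 2 (1.23% against 0.551% and 1.79%). These are matches of letters and not measured binding.

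Of the 94 genes, 75 had a consensus region in at least 1 brain region, 37 in all 4 and 12 in striatum alone. The 19 without a region were Kcna7, Kcne1, Kcne1l, Kcne2, Kcne3, Kcnh8, Kcnj8, Kcnj13, Kcnj14, Kcnj16, Kcnk5, Kcnk15, Kcnk16, Kcnk18, Kcnmb1, Kcnmb2, Kcnmb3, Kcnn4 and Kcns3. Kcn regions made up 1.29% of all regions in PFC, 1.46% in hippocampus, 1.18% in hypothalamus and 1.23% in striatum, and belonged to 53, 52, 48 and 74 genes. They lay mostly inside introns: 57.9% in PFC, 57.2% in hippocampus, 57.1% in hypothalamus and 65.1% in striatum were intronic. Promoters, within 1 kb of a TSS, made up 19.1%, 19.1%, 22.7% and 10.4% of Kcn regions, below the 31.4%, 25.1%, 33.4% and 20.3% of all regions. Striatal regions covered 96.6% of PFC and 92.6% of hypothalamic Kcn regions, while hypothalamic regions covered 23.1% of the striatal ones. The striatal consensus list was the longest of the 4. Its median region had a peak in 40.0% of striatal libraries. In the other lists this was 88.1% in PFC, 81.8% in hippocampus and 75.6% in hypothalamus.

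Kcnma1, the BK channel, whose gene body spans 725 kb, held the most regions in every brain region: 25 in PFC, 26 in hippocampus, 25 in hypothalamus and 90 in striatum. Next in PFC were Kcnab1 with 17, Kcnh1 (EAG1) with 15, Kcnd2 with 13 and Kcnq3 with 12. In hippocampus Kcnj6 (GIRK2) and Kcnq3, an M-current subunit, held 15 each and Kcnd3 held 12. In hypothalamus Kcnq3 held 15 and Kcnd3 held 9. In striatum Kcnd2, the Kv4.2 pore of dendritic A-type current, held 52, Kcnab1 47, Kcnq3 43 and Kcnip4 41. Kcnj6 thus held 15 regions in hippocampus against 2 in PFC, 6 in hypothalamus and 4 in striatum, although the striatal list was the longest. Gene length differs widely among these genes, so the counts are not levels.

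Single broad domains marked a few of the genes. In striatum the widest Kcn region covered 24.9 kb of a Kcnq3 intron (chr15:66233755-66258647), the 99.9th percentile of widths there, with a mean rank of 96.8. In hypothalamus a Kcnq3 intron was again widest, with 15.8 kb (99.5th percentile). An intergenic region nearest to Kcna5, the Kv1.5 pore, was 28.2 kb wide in hippocampus, 17.1 kb in striatum, 11.1 kb in hypothalamus and 8.65 kb in PFC. The promoter region of Kcnab2 was 25.4 kb wide in hippocampus against 12.7 kb in hypothalamus, 6.71 kb in striatum and 6.53 kb in PFC. An intron of Kcnk13 was 21.0 kb wide in striatum.

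Promoters were compared between genes and brain regions in windows of equal length, 1 kb on each side of the TSS, ranked among all 21829 protein-coding genes. Kcna2, the axonal Kv1.2 pore, and Kcnip3, the calcium sensor also known as DREAM, were the only Kcn genes with a top-10000 peak at the promoter in at least 50% of libraries in all 4 brain regions. Kcna2 reached 50% of libraries in PFC, 61.4% in hippocampus, 61.0% in hypothalamus and 64.4% in striatum. Kcnip3 reached 78.6%, 86.4%, 75.6% and 77.8%. In all, 15 of 94 promoters passed 50% of libraries in PFC (16.0% against 14.6% of all promoters), 11 in hippocampus (11.7% against 5.43%), 6 in hypothalamus (6.38% against 6.33%) and 9 in striatum (9.57% against 7.07%). No library had such a peak at 22 of the 94 promoters.

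**Figure D1:**
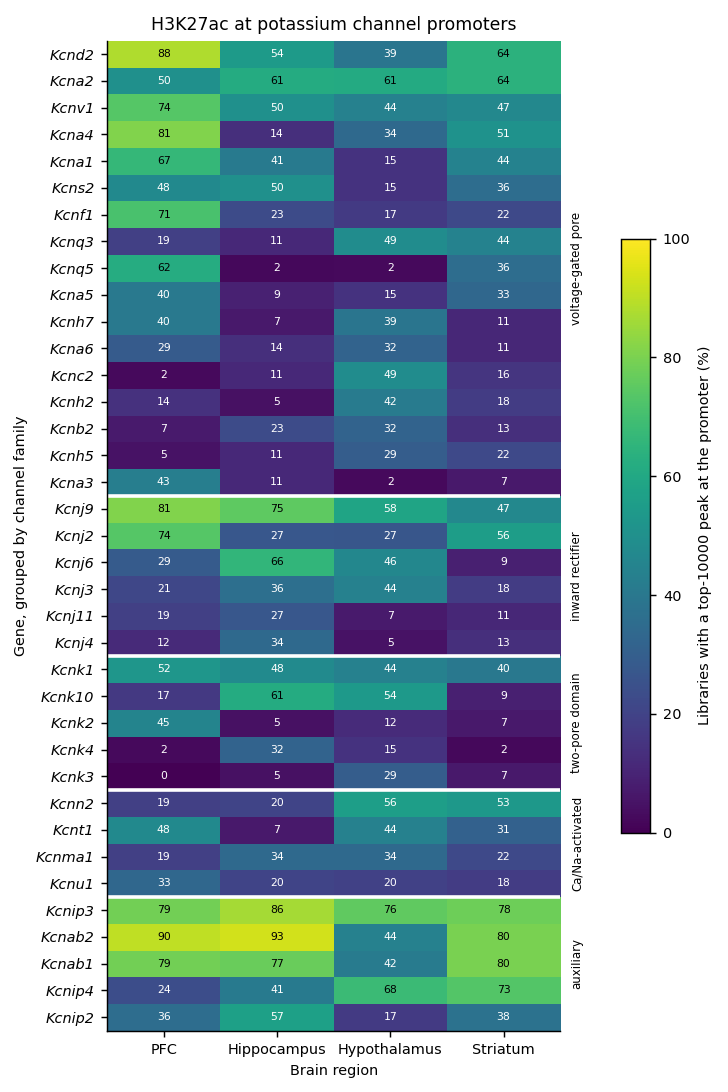
Heatmap of the percentage of libraries with a top-10000 H3K27ac peak within 1 kb of a TSS (colour and printed number, rounded), for the Kcn genes shown, each at 25% or more in at least 1 of 4 brain regions (columns), grouped by channel family (rows). Kcnab2 is lower in hypothalamus than elsewhere, Kcnip3 is high in all 4 columns, and Kcnj6 and Kcnk10 are lower in striatum than in hippocampus.

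The highest median promoter ranks in PFC belonged to Kcnab2 (96.5, range 47.6 to 99.9 over 42 libraries), Kcnd2 (94.1) and Kcnab1 (93.3), followed by Kcnf1 (92.4), Kcna4 (90.8), Kcnip3 (90.7), Kcnv1 (90.5) and Kcnj9 (89.0). Kcnab1 and Kcnab2 encode cytoplasmic beta subunits of Kv1 channels, and Kcnf1 and Kcnv1 encode silent pore subunits that act with Kv2. In hippocampus the order was Kcnab2 (99.1, range 83.9 to 100 over 44 libraries), Kcnip3 (97.7), Kcnab1 (95.6), Kcnj9 (94.6), Kcnj6 (94.4), Kcnk10 (93.4), Kcnd2 (92.7) and Kcna2 (91.2). In hypothalamus it was Kcnip3 (93.9, range 70.4 to 99.9 over 41 libraries), Kcnip4 (92.6), Kcnn2 (90.8), Kcna2 (90.4), Kcnk10 (89.6), Kcnj3 (88.4), Kcnj9 (88.4) and Kcnk1 (88.4). In striatum it was Kcnip3 (95.5, range 42.4 to 99.7 over 45 libraries), Kcnab1 (95.4), Kcnab2 (94.6), Kcnip4 (92.7), Kcnd2 (92.2), Kcna2 (90.8), Kcna4 (89.0) and Kcnq3 (88.9). Auxiliary subunits thus took the top place in each brain region. Neighbours in these orders differed by less than the range of either gene over libraries. As a family the auxiliary genes were split, since their median promoter rank was 32.2 in PFC and 34.4 in hippocampus, near the level of promoters without a peak (29.5 and 32.6). Among families, calcium- and sodium-activated channels had the highest median promoter rank (72.9, 71.7, 75 and 73.3 in PFC, hippocampus, hypothalamus and striatum), and inward rectifiers had 31.3, 33.4, 35.8 and 38.0.

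Brain regions were compared by limma on the promoter ranks of all 21829 genes, with terms for brain region, treatment and sex, and called at a Benjamini-Hochberg adjusted p under 0.05 over all promoters. Between hippocampus and hypothalamus 30 of 94 Kcn promoters were called, 20 higher in hippocampus and 10 higher in hypothalamus, where 7.41% and 7.32% of all promoters were. Kcnj4 (Kir2.3) and Kcnh3 (ELK2) differed most. Kcnj4 had a median rank of 85.7 in hippocampus (range 25.1 to 99.1) and 35.2 in hypothalamus (range 23.8 to 94.4), a fitted difference of 38.7 ± 4.23 percentile points (SE, adjusted p = 1.31e-14). Kcnh3 had medians of 79.8 and 34.5, and a difference of 35.7 ± 4.2 (adjusted p = 6.17e-13). Both genes were low in most hypothalamic libraries. Kcnj11, the pore of ATP-sensitive channels (26.2 ± 4.9), Kcng2 (25.5 ± 3.13), Kcng1 (20.5 ± 3.26), Kcns2 (19.3 ± 3.88), Kcnc4 (18.7 ± 3.61) and Kcnab2 (18.0 ± 2.7) were also higher in hippocampus. Higher in hypothalamus were Kcnh2, the ERG1 pore, and the sodium-activated Kcnt1. The fitted differences, hippocampus minus hypothalamus, were −24.3 ± 4.34 for Kcnh2, −24.3 ± 4.23 for Kcnt1, −23.3 ± 3.82 for Kcnip1, −22.6 ± 3.98 for Kcnmb2, −17.2 ± 4.35 for Kcnc2, −13.0 ± 2.67 for Kcnh8, −12.4 ± 3.99 for Kcnq3 and −12.2 ± 3.28 for Kcnip4. Kcnip1, which binds Kv4 pores, had a top-10000 peak in 24.4% of hypothalamic libraries and in 0 of the libraries of the other 3 brain regions.

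Striatum against hippocampus gave 30 calls, 12 higher and 18 lower in striatum, with 4.54% and 6.82% of all promoters called higher and lower. The GIRK2 gene Kcnj6 showed the largest difference of the 18. Its median rank was 94.4 in hippocampus (range 45.6 to 99.8) and 41.6 in striatum (range 25.3 to 99.6), a fitted difference of −35.9 ± 4.34 (adjusted p = 2.3e-12). Kcnc4 (−27.1 ± 3.55), Kcng2 (−27.1 ± 3.07), Kcnk4 (−27.1 ± 4.35), Kcnj11 (−26.5 ± 4.82), Kcnk10 (−25.4 ± 4.07), Kcnj4 (−20.6 ± 4.16) and Kcnt2 (−20.4 ± 4.22) followed. Higher in striatum were Kcna5 (21.8 ± 4.56), Kcnt1 (21.2 ± 4.16), the M-current gene Kcnq5 (20.5 ± 4.32), Kcnh2 (17.8 ± 4.26), Kcng4 (16.0 ± 4.15), Kcnj12 (14.2 ± 4.49), Kcnq3 (12.8 ± 3.92) and Kcnip4 (11.1 ± 3.23). Striatum against hypothalamus gave 28 calls, 14 in each direction, where 3.91% of all promoters were higher and 5.35% lower in striatum. Kcnj6 was again the lowest in striatum (−26.1 ± 4.42, adjusted p = 1.59e-06; hypothalamic median 87.3), with Kcnip1 (−20.3 ± 3.82), Kcnt2 (−19.3 ± 4.29), Kcnk10 (−18.4 ± 4.14), Kcnc2 (−17.8 ± 4.35), Kcnd3 (−17.0 ± 4.26), Kcnh7 (−16.9 ± 4.48) and Kcnk3 (−15.9 ± 4.7). Kcns2 (20.6 ± 3.88), Kcnh3 (20.2 ± 4.2), Kcnq5 (20 ± 4.39), Kcnj4 (18.1 ± 4.23), Kcna5 (17.8 ± 4.64), Kcng3 (13.7 ± 3.87), Kcnab1 (13.6 ± 2.83) and Kcnd2 (12.5 ± 3.79) were higher in striatum. At Kcnd2, and at Kcnj12 and Kcnq3 in striatum against hippocampus, the call was lost with promoters without a peak set to 0 (adjusted p = 0.125, 0.0521 and 0.0535). With the 10000 strongest peaks of every list, the counts were 44 for hippocampus against hypothalamus, 9 for striatum against hippocampus and 8 for striatum against hypothalamus. These comparisons share libraries, and without the oligodendrocyte-marked libraries they gave 29, 28 and 26 calls in the order given. The counts of these refits stand without the share over all promoters. They do not show whether Kcn promoters moved apart from other promoters.

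For PFC the library kit was xGen 2S, and for the other brain regions ThruPLEX, so PFC and kit cannot be told apart. The level shared by promoters without a peak also differed (29.5 in PFC, 32.6 in hippocampus, 33.4 in hypothalamus and 34.2 in striatum), and each PFC count is given beside the count with such promoters set to 0, an alternative chosen after seeing the data. PFC against striatum gave 46 calls, 13 higher and 33 lower in PFC, where 15.2% and 43.8% of all promoters were called, and 17 calls (13 and 4) with the level at 0, where 15.1% and 0.953% were. Against hippocampus there were 53 calls (12 and 41, with 17.6% and 42.1% of all promoters), and 25 (11 and 14) with the level at 0 (16.6% and 5.14%). Against hypothalamus there were 60 (21 and 39, with 18.3% and 44.8%), and 33 (21 and 12, with 16.3% and 6.23%). Calls for higher rank in PFC therefore moved by at most 1, and calls for lower rank fell from 33, 41 and 39 to 4, 14 and 12. Kcnq5 stood out among those higher in PFC: its promoter had a top-10000 peak in 61.9% of PFC, 35.6% of striatum, 2.27% of hippocampus and 2.44% of hypothalamus libraries. It was 33.4 ± 4.37 points higher than in hippocampus (adjusted p = 6.54e-11) and 32.9 ± 4.45 higher than in hypothalamus. Kcna3, the Kv1.3 pore, was 25.1 ± 4.56 points higher in PFC than in striatum, and Kcnj4 35.5 ± 4.28 higher than in hypothalamus. Kcnc2, the Kv3.2 pore of fast-firing interneurons, was lower in PFC than in hypothalamus (−34.0 ± 4.41), and Kcng2 lower than in hippocampus (−30.2 ± 3.11). Both kept an adjusted p under 0.05 with the level at 0.

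**Figure D2:**
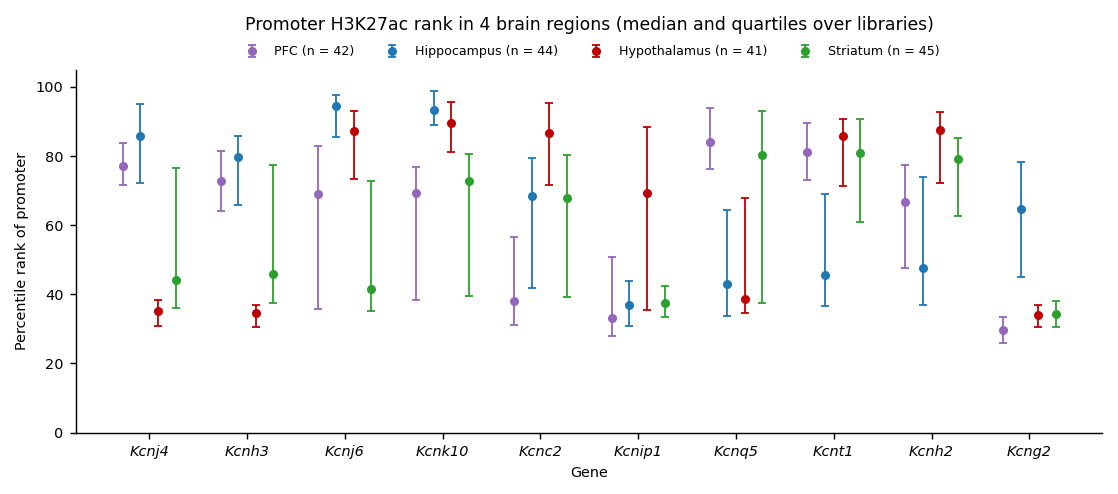
Promoter percentile rank (y axis, 0 to 100) of 10 Kcn genes in 4 brain regions, as median (point) and quartiles (bars) over 42, 44, 41 and 45 libraries. Kcnj4 and Kcnh3 sit lowest in hypothalamus, Kcnj6 in striatum, Kcnq5 in hippocampus and hypothalamus, and Kcng2 has its highest median in hippocampus (64.7).

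The 4 treatment groups were compared within each brain region by limma on the ranks of all regions, with group and sex in the model, as 4 simple contrasts and the interaction of perinatal morphine with LPS, and adjusted over all regions of the comparison. Of 20 comparisons, 15 called no Kcn region, and 5, all involving MOR-LPS in hypothalamus or striatum, called between 4 and 15. In PFC the 5 comparisons called 0 of 235 Kcn regions and 0% of all regions. The unadjusted p was under 0.05 for 6 Kcn regions in MOR-SAL minus SAL-SAL (2.55%, against 2.96% of all regions), 17 in MOR-LPS minus SAL-LPS (7.23% against 11.3%), 13 in SAL-LPS minus SAL-SAL (5.53% against 6.54%), 15 in MOR-LPS minus MOR-SAL (6.38% against 7.81%) and 11 in the interaction (4.68% against 7.07%). The smallest adjusted p there was 0.163, for a promoter region of Kcnj11, at −28.2 ± 9.13 in MOR-LPS minus SAL-LPS. In hippocampus limma called 0 of 236 Kcn regions in the 5 comparisons, against 0.00617% of all regions in MOR-SAL minus SAL-SAL and in the interaction and 0% in the other 3. There 7, 10, 30, 11 and 18 Kcn regions had an unadjusted p under 0.05, in the same order. These were 2.97%, 4.24%, 12.7%, 4.66% and 7.63% of the Kcn regions, against 5.64%, 7.56%, 9.59%, 6.09% and 5.66% of all regions. In SAL-LPS minus SAL-SAL, with 30, the smallest adjusted p values belonged to an intergenic region near Kcna4 (34.8 ± 9.07, adjusted p = 0.194) and an intron of Kcnk9, the TASK-3 leak channel (−27.8 ± 8.05, adjusted p = 0.231).

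In the hypothalamus neither treatment alone called a Kcn region. MOR-SAL minus SAL-SAL called 0 of 163 by limma (13 at an unadjusted p under 0.05, or 7.98% against 8.04% of all regions), where 0% of all regions were called. The smallest adjusted p, 0.209, was that of a Kcnab2 promoter region at −43.3 ± 12.3. SAL-LPS minus SAL-SAL called 0 of 163 by limma (23 unadjusted, or 14.1% against 12.2%), where 0.305% of all regions were called. Its smallest adjusted p values were 0.0874 for an intron of Kcnd2 (−39.8 ± 11.3) and 0.0926 for an intergenic region near Kcna4 (−33.0 ± 9.46).

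With both treatments combined, the Kcn regions called in hypothalamus mostly ranked lower. MOR-LPS minus SAL-LPS called 11 of 163 Kcn regions, 10 lower and 1 higher in MOR-LPS, while 1.68% of all regions were called lower and 2.63% higher. Of the 163 differences 63.2% were negative, against 50.7% over all regions, with a median of −5.24 points against −0.344. In this comparison 62.1% of Kcn differences were negative in PFC (52.0% of all regions) and 58.5% in hippocampus (49.7%), where no Kcn region was called. Of the 10 lower regions 5 belonged to voltage-gated pore genes (Kcnb2, Kcnc1, Kcnh2 and 2 of Kcnd3), 2 to the auxiliary gene Kcnip4, and 1 each to Kcnj5, Kcnk2 and Kcnn2. MOR-LPS lists were also longer (median 70450 peaks against 48152 in SAL-LPS), had fewer neuronal marker promoters (median 28.6% against 42.9%) and had a smaller share of their top 10000 peaks at Kcn genes (0.87% against 1.21%). The comparison was therefore repeated with every list cut to its 20170 strongest peaks. There 3 Kcn regions and 1.27% of all regions were called, and below a region is said to fall only where it passed in both. Leaving out 1 library at a time gave between 3 calls (without MOR-LPS male 14-4) and 17 (without MOR-LPS male 13-2).

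The strongest was an intronic region of Kcnb2 (chr1:15682452-15684751), which encodes the delayed rectifier Kv2.2. It lies inside the Kcnb2 gene, 121 kb from the nearest TSS, that of Terf1. Its lowest, median and highest ranks were 13.5, 50.1 and 96.3 in SAL-SAL, 66.1, 84.1 and 99.3 in MOR-SAL, 13.9, 91.1 and 99.1 in SAL-LPS, and 5.98, 21.0 and 87.4 in MOR-LPS. All 12 MOR-SAL libraries and 10 of 11 SAL-LPS libraries had a peak there, as did 5 of 8 SAL-SAL and 6 of 10 MOR-LPS libraries. All 10 MOR-LPS libraries lay below the SAL-LPS median, but the ranges overlapped: SAL-LPS female 10-4 (13.9) and male 1-0 (44.1) were low, and MOR-LPS male 13-2 (87.4) was high. The region fell by 50.2 ± 10.6 points against SAL-LPS (adjusted p = 0.00353). In lists of equal length the difference was −44.5 ± 10.8 (adjusted p = 0.0215), and with the shares of neuronal and glial marker promoters as terms it was −47.8 (adjusted p = 0.0308). In the 28 libraries whose peak names carry lane L007 it was −58.7 (adjusted p = 0.017), the only Kcn region called there.

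The Kcnj5 region (chr9:32290180-32295662) lies 48.6 kb from the TSS of Kcnj5, which encodes GIRK4. It ranked high in most MOR-SAL and SAL-LPS libraries and fell in MOR-LPS, with the SAL-SAL median in between. Its lowest, median and highest ranks were 33.1, 67.4 and 98.1 in SAL-SAL, 36.5, 87.9 and 100 in MOR-SAL, 67.1, 88.7 and 100 in SAL-LPS, and 10.8, 33.0 and 99.5 in MOR-LPS. In MOR-LPS 7 libraries lay at 44.8 or below, and 3 (female 7-1, female 18-1 and male 13-2) at 82.4 or above, within the SAL-LPS range. The difference from SAL-LPS was −40.9 ± 9.22 (adjusted p = 0.00514), −42.7 ± 9.89 in lists of equal length (adjusted p = 0.0179) and −36.1 with marker terms (adjusted p = 0.0531).

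The Kcnh2 region (chr5:24341708-24345926) is an intron 5.68 kb from a TSS of the gene for ERG1, whose current slows repeated firing. Its lowest, median and highest ranks were 18.9, 86.3 and 99.2 in SAL-SAL, 21.1, 53.4 and 93.8 in MOR-SAL, 31.9, 90.8 and 98.9 in SAL-LPS, and 3.32, 40.5 and 91.2 in MOR-LPS. The MOR-SAL median was also below that of SAL-LPS here, and the group ranges overlapped. Against SAL-LPS it fell by 44.8 ± 10.7 points (adjusted p = 0.0073), with −47.2 ± 11.3 in lists of equal length (adjusted p = 0.0207) and −36.3 with marker terms (adjusted p = 0.0812). The Kcnb2, Kcnj5 and Kcnh2 regions were called against SAL-LPS in each of 41 fits that left out 1 library, and also without the 2 oligodendrocyte-marked libraries (adjusted p = 0.00559, 0.013 and 0.013). Kcnj10 was the other region called without those 2 libraries. In lane L007 the Kcnj5 and Kcnh2 regions had −41.0 and −29.7 (adjusted p = 0.0604 and 0.253).

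The remaining 7 lower regions did not pass in lists of equal length. They were the promoter of Kcnn2, the SK2 channel of the afterhyperpolarisation (−30.4 ± 9.8), an intron of Kcnk2, the TREK-1 leak channel (−32.6 ± 9.44), the region 54.4 kb from Kcnc1, the fast Kv3.1 pore (−32.0 ± 9.26), and an intergenic region and an intron of the Kv4.3 gene Kcnd3 (−36.8 ± 11.2 and −34.7 ± 10.8). The other 2 were the Kcnip4 promoter (−30.0 ± 9.56) and an intron of Kcnip4 (−33.9 ± 11.0). Adjusted p ranged from 0.0282 to 0.0487. At the Kcnip4 promoter 3 of 10 MOR-LPS libraries had a peak, against 9 of 11 SAL-LPS libraries and 2 of 8 SAL-SAL libraries. At the region near Kcnc1 all 10 MOR-LPS libraries lay below the SAL-LPS median of 81.3, with a highest MOR-LPS rank of 79.6.

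The single higher region was an intron of Kcnj10 (chr1:172345876-172353560), which encodes Kir4.1, the potassium-buffering channel of astrocytes and oligodendrocytes. Its lowest, median and highest ranks were 6.71, 35.4 and 92.6 in SAL-SAL, 5.55, 16.5 and 76.1 in MOR-SAL, 5.14, 16.0 and 97.3 in SAL-LPS, and 5.94, 66.0 and 93.7 in MOR-LPS. A peak was present in 8 of 10 MOR-LPS, 2 of 11 SAL-LPS, 3 of 12 MOR-SAL and 4 of 8 SAL-SAL libraries. The difference from SAL-LPS was 37.5 ± 10.1 (adjusted p = 0.018), 32.1 ± 10.1 in lists of equal length (adjusted p = 0.0659), 35.3 ± 10.0 without the oligodendrocyte-marked libraries (adjusted p = 0.0322) and 30.3 with marker terms (adjusted p = 0.122). Shares of astrocyte marker promoters had a median of 0 in MOR-LPS and in SAL-LPS, with highest values of 22.2% and 11.1%. In MOR-SAL the median and the highest value were both 11.1%, and in SAL-SAL both were 0. The part of these shares in the difference beyond the fit with marker terms was not tested.

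**Figure D3:**
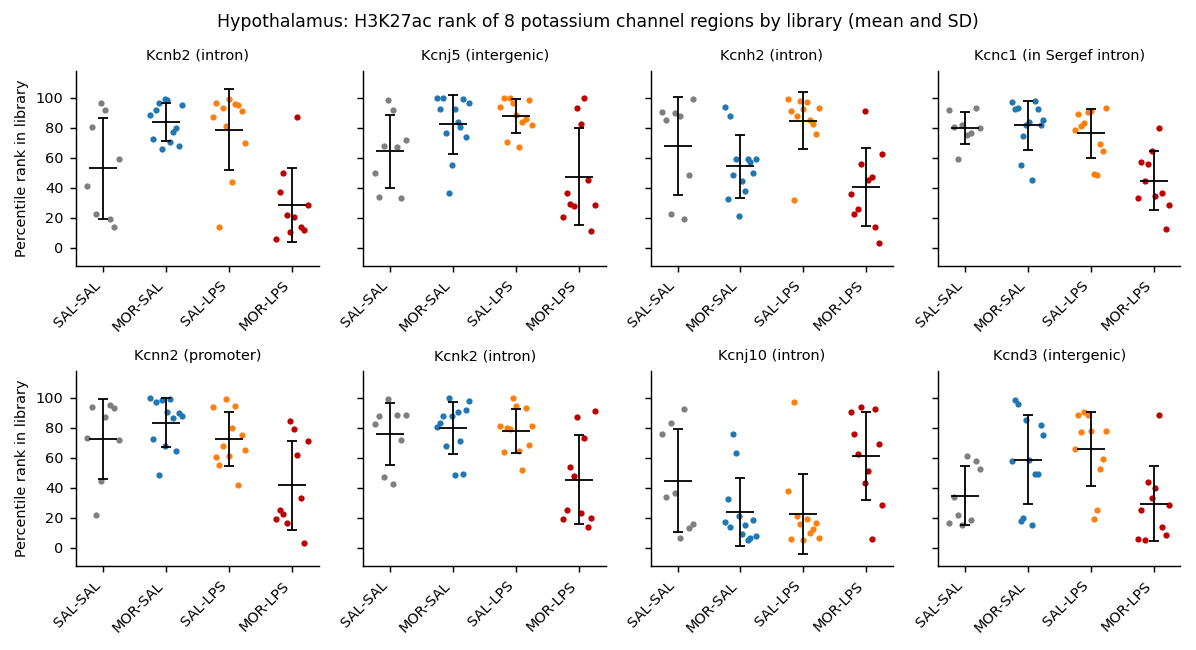
Percentile rank (y axis, 0 to 100) of 8 Kcn regions in hypothalamus in each library (dots) of SAL-SAL (n = 8), MOR-SAL (n = 12), SAL-LPS (n = 11) and MOR-LPS (n = 10), with group mean and SD (bars). For Kcnb2 the MOR-LPS median is 21.0 against 91.1 in SAL-LPS, while the Kcnj10 panel runs the other way, with 66.0 against 16.0.

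MOR-LPS minus MOR-SAL shares its MOR-LPS libraries with the comparison above and called 7 Kcn regions, 6 lower and 1 higher, where 1.51% and 2.33% of all regions were called. In lists of equal length 5 Kcn regions passed, with 1.75% of all regions. Kcnb2 fell by 55.6 ± 10.6 points (adjusted p = 0.0014) and the region near Kcnc1 by 39.1 ± 9.26 (adjusted p = 0.00615). The Kcnn2 promoter fell by 40.8 ± 9.8 (adjusted p = 0.0066), the Kcnj5 region by 37.4 ± 9.22 (adjusted p = 0.00858) and the Kcnk2 intron by 34.6 ± 9.43 (adjusted p = 0.019). These 5 were also called with marker terms, but none of the 7 was called in lane L007, which holds 6 libraries of each group. There Kcnb2 had −64.8, the region near Kcnc1 −43.3, the Kcnn2 promoter −27.5, the Kcnj5 region −44.7 and the Kcnk2 intron −24.2 (adjusted p = 0.0703, 0.0928, 0.371, 0.0812 and 0.42). Without 1 library the count of 7 was between 4 (without MOR-LPS male 14-0 or male 14-4) and 13 (without MOR-LPS male 13-2), with 12 without MOR-SAL female 18-0. The Kcnn2 promoter had lowest, median and highest ranks of 22.1, 80.2 and 95.2 in SAL-SAL, 48.7, 88.8 and 99.9 in MOR-SAL, 42.1, 67.8 and 99.6 in SAL-LPS, and 3.32, 29.1 and 84.6 in MOR-LPS. All 10 MOR-LPS libraries lay below the MOR-SAL median at this promoter and at the region near Kcnc1. A Kcnip4 intron (−36.4 ± 11.1, adjusted p = 0.0386) and the Kcnj10 intron (31.6 ± 10.1, adjusted p = 0.0496) did not pass in lists of equal length.

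The interaction asks whether perinatal morphine changed the LPS difference. It called 6 Kcn regions of the hypothalamus, 5 negative and 1 positive, where 0.82% and 1.04% of all regions were called. At Kcnb2 mean ranks were 52.9 ± 33.7 in SAL-SAL and 78.7 ± 26.8 in SAL-LPS (SD, n = 8 and 11) without morphine, and 83.6 ± 12.7 in MOR-SAL and 28.6 ± 24.6 in MOR-LPS (n = 12 and 10) with it. The mean was thus higher with LPS after perinatal saline (not called) and lower with LPS after perinatal morphine, and the interaction was −81.8 ± 15.8 (adjusted p = 0.00187). The Kcnj5 region had an interaction of −62.9 ± 13.7 (adjusted p = 0.0108). Both passed in lists of equal length, where 0.0508% of all regions did, and in each fit that left out 1 library. The others were the intergenic Kcnd3 region (−63.7 ± 16.7), the Kcnip4 promoter (−50.3 ± 14.2), a region 45.3 kb from Kcnc4 (−52.2 ± 14.9) and an intron of Kcnma1 (47.6 ± 14.0), with adjusted p from 0.0268 to 0.0456 and no call in lists of equal length. No Kcn region of the hypothalamus was called in the interaction within lane L007, where the estimates for Kcnb2 and Kcnj5 were −85.6 and −69.0 (adjusted p = 0.0616 for both).

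Apart from the region near Kcnj5, the GIRK genes, effectors of the opioid receptors, had no called region in hypothalamus. Promoter medians over the 4 groups, from SAL-SAL and MOR-SAL to SAL-LPS and MOR-LPS, were 87.9, 86.2, 90.9 and 87.3 for Kcnj3 (GIRK1), 88.9, 87.7, 86.2 and 86.0 for Kcnj6 and 92.2, 89.4, 91.8 and 84.8 for Kcnj9 (GIRK3). The promoter of Kcnj5 itself had no top-10000 peak in any hypothalamic library, so its fall above is that of a distal region. Regions of Kcnj3 (1), Kcnj6 (6) and Kcnj9 (1) had MOR-LPS minus SAL-LPS differences between −8.4 and 4.28 and none was called. Among axonal genes the 15 regions of Kcnq3 had differences of −32.6 to 24.2 (smallest adjusted p = 0.0593). Kcna1 and Kcna2, with 3 regions each, ranged from −9.48 to 22.4 with no call. The glial gene Kcnj16 had no consensus region, and its promoter medians were 36.3, 33.5, 35.5 and 60.4 in the 4 groups.

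In the striatum 15 of 740 Kcn regions were called in MOR-LPS minus SAL-LPS, 8 higher and 7 lower, where 1.96% of all regions were called higher and 0.365% lower. Leaving out 1 library at a time gave between 0 calls (without any of 8 libraries, among them each of the 5 oligodendrocyte-marked MOR-LPS libraries) and 33 (without MOR-LPS female 12-2). None of the 15 was called in lists of equal length (10811 peaks), where 0.00333% of all regions were, nor with marker terms, nor without the 7 oligodendrocyte-marked libraries. Lists cut that short leave many of the 60013 regions without a peak in a whole group. At the Kcnk2 intron, for example, MOR-LPS ranks had a mean of 43.1 and an SD of 0.598 there. That setting could therefore call few striatal regions of any gene. Of the 740 differences 73.5% were negative, against 55.1% over all regions, with a median of −4.87 against −1.47. The higher regions were the Kcnj10 promoter (34.3 ± 9.61, adjusted p = 0.0376), a region 40.2 kb from the Kv1.1 gene Kcna1 (32.9 ± 9.43), 2 introns of Kcnip1 (31.7 ± 8.97 and 29.1 ± 8.77), the promoter of Kcnk13, the THIK-1 channel (29.9 ± 8.92), 2 introns of Kcnk13 (27.9 ± 7.49 and 25.3 ± 7.48) and a region 41.5 kb from Kcnrg, a regulator of Kv assembly (27 ± 7.52). All of them were smaller without the oligodendrocyte-marked libraries, with differences of 8.65 to 25.1.

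The oligodendrocyte-marked libraries ranked high at these regions. At the Kcnj10 promoter region (chr1:172340293-172353637) the 5 oligodendrocyte-marked MOR-LPS libraries ranked 98.0 to 99.9, and the other 10 MOR-LPS libraries 23.9 to 98.2 with a median of 52.1. The marked SAL-LPS library ranked 98.0 and the other 12 had a median of 32.6. At the Kcnk13 intron starting at 99999461 of chromosome 12 the 5 ranked 76.9 to 96.9 and the other 10 had a median of 26.8, below the 28.8 of the 12 unmarked SAL-LPS libraries. The Kcnk13 promoter region (80.8 to 87.8 against a median of 57.7), the Kcna1 region (76.9 to 99.9 against 67.4) and both Kcnip1 introns (85.0 to 99.9 against 41.2, and 81.9 to 96.9 against 40.4) showed the same order. At these regions the medians over all 13 SAL-LPS libraries, the marked library included, were 30.6, 32.1, 33.0 and 30.6. Each was below the median of the unmarked MOR-LPS libraries. The marked SAL-SAL library ranked 99.1 at Kcnj10 and 92.0 at the Kcnk13 intron, the highest of its group. THIK-1 is known from microglia, and no microglial marker promoter of 9 had a top-10000 peak in any striatal library. Weaker peaks were not counted there, and no fit held a term for microglial markers, so a microglial part was not tested.

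**Figure D4:**
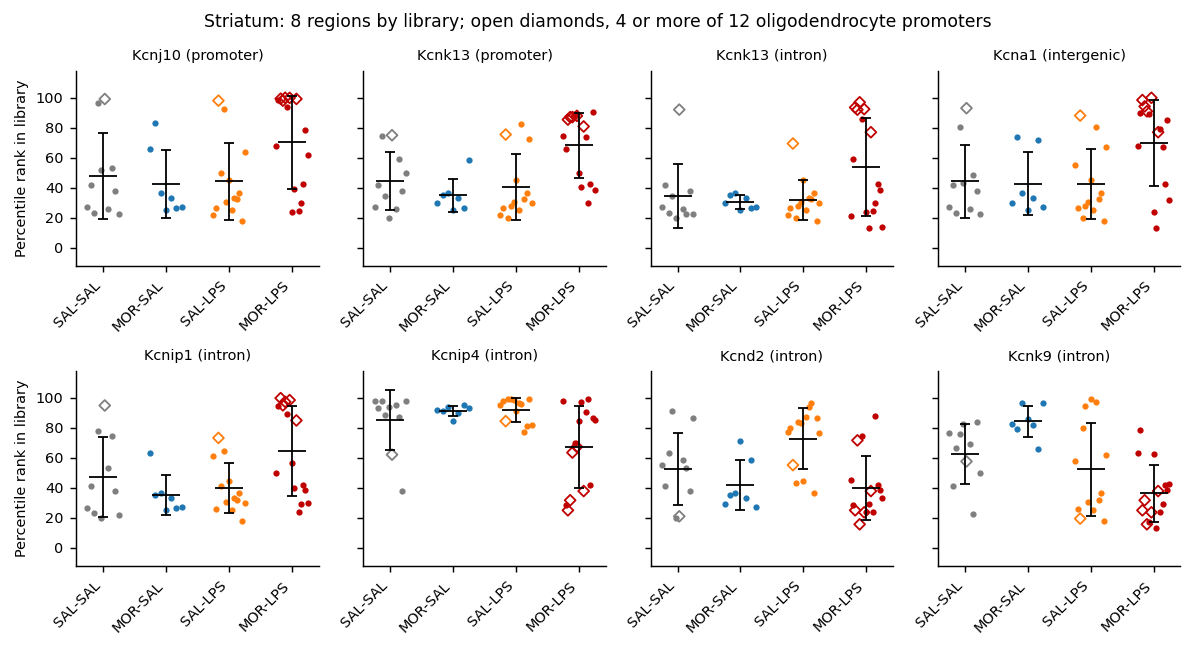
Percentile rank (y axis, 0 to 100) of 8 Kcn regions in striatum in each library of SAL-SAL (n = 10), MOR-SAL (n = 7), SAL-LPS (n = 13) and MOR-LPS (n = 15), with group mean and SD (bars). Open diamonds are libraries with top peaks at 4 or more of 12 oligodendrocyte marker promoters. At Kcnj10, Kcnk13, Kcna1 and Kcnip1 the 5 diamonds of MOR-LPS sit at 76.9 or above, and at the Kcnip4 intron they lie between 25.1 and 67.4.

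The 7 lower striatal regions were 2 introns of Kcnip4 (−26.6 ± 6.46 and −33.1 ± 9.22), 2 of Kcnh1 (−28.2 ± 7.79 and −28.1 ± 7.93) and 1 each of Kcnma1 (−25.5 ± 6.39), Kcnd2 (−32.4 ± 9.25) and Kcnk2 (−25.5 ± 7.57), with adjusted p from 0.0307 to 0.048. At the Kcnd2 intron the lowest, median and highest ranks were 19.9, 54.3 and 91.5 in SAL-SAL, 27.4, 35.2 and 71.3 in MOR-SAL, 36.6, 80.2 and 96.3 in SAL-LPS, and 15.7, 33.5 and 87.8 in MOR-LPS. Here SAL-LPS stood above the other 3 groups in median. The estimate was −29.2 ± 10.9 without the oligodendrocyte-marked libraries (adjusted p = 0.757) and −11.9 in lists of equal length (adjusted p = 0.57). At the Kcnip4 intron (chr5:49097032-49102610) the estimate without those libraries was −14.2 ± 6.38. MOR-LPS minus MOR-SAL called 4 striatal Kcn regions, 2 higher and 2 lower, where 0.12% and 0.133% of all regions were called. Among them were a region 60.9 kb from Kcna4 (−39.3 ± 8.66, adjusted p = 0.0167), an intron of Kcnk9 (−47.1 ± 11.1) and an intron of Kcnk13 (30.2 ± 7.62). None of the 4 was called in lists of equal length (0.00333% of all regions) or without the oligodendrocyte-marked libraries. At Kcnk9 all 7 MOR-SAL libraries had a peak (rank 66.1 to 96.9), against 4 of 15 MOR-LPS libraries. The other striatal comparisons called 0 of 740 by limma: MOR-SAL minus SAL-SAL (0.00667% of all regions called), SAL-LPS minus SAL-SAL (0%) and the interaction (0.0167%). An unadjusted p under 0.05 was found there for 39, 39 and 93 Kcn regions, or 5.27%, 5.27% and 12.6% against 5.57%, 5.1% and 14.5% of all regions.

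**Figure D5:**
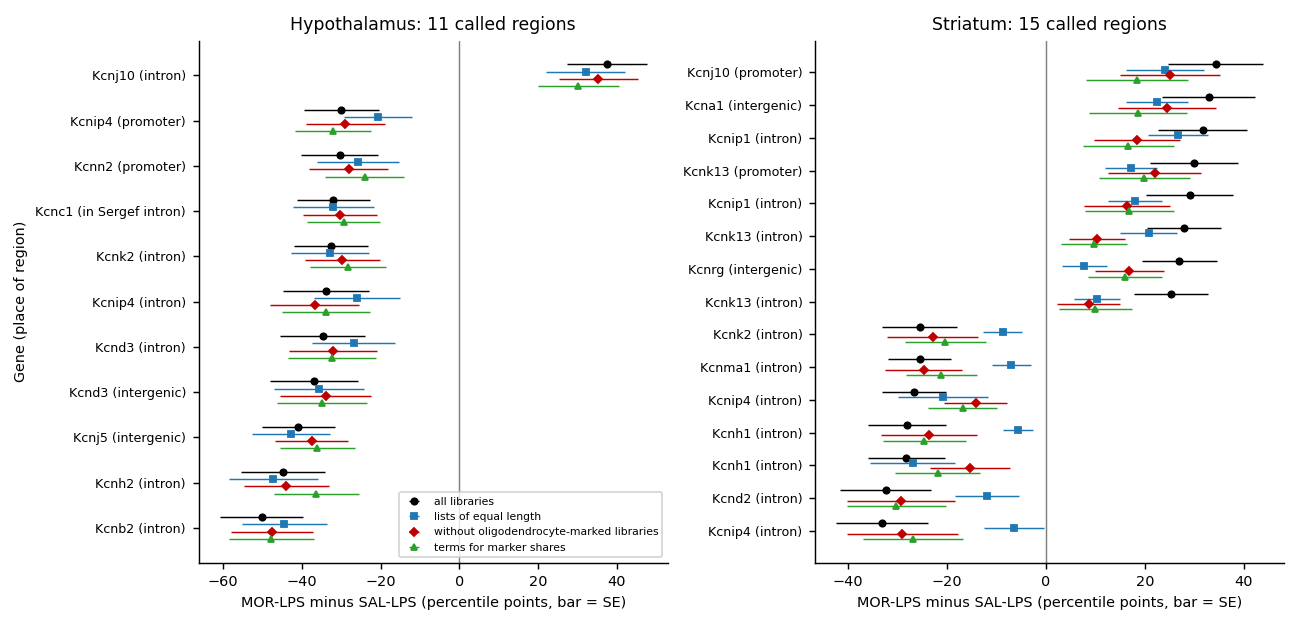
Fitted difference MOR-LPS minus SAL-LPS in percentile points (x axis, bars are SE) for the 11 hypothalamic and 15 striatal Kcn regions called, with all libraries (black), lists of equal length (blue), without oligodendrocyte-marked libraries (red) and with terms for marker shares (green). The 11 hypothalamic estimates keep their sign in each colour (Kcnb2 from −50.2 to −44.5), and the 8 positive striatal ones are smaller in each other colour than in black (Kcnj10 from 34.3 to 18.5).

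Where another brain region had a consensus region at the same place, its values were compared side by side. Outside hypothalamus the Kcnb2 place had a region in striatum only, where MOR-LPS minus SAL-LPS was −5.97 ± 9.63 (adjusted p = 0.757), and that of Kcnj5 likewise (−7.75 ± 9.73). The Kcnh2 place was 14.6 ± 9.32 in striatum (adjusted p = 0.367). The place of the Kcnk2 intron had a region in all 4 brain regions and differences of −8.33 in PFC, 17.8 in hippocampus and −4.91 in striatum, none called. The Kcnip4 intron at 49097194 of chromosome 5 was lower in PFC (−26.3 ± 10.3, adjusted p = 0.27), hypothalamus (−14.5 ± 11.1, adjusted p = 0.455) and striatum (−26.6 ± 6.46), with a call in striatum alone. Kcnj10 was the gene called higher in both hypothalamus and striatum, and it had no region in PFC or hippocampus. The brain regions came in part from the same animals, and the difference between brain regions in these contrasts was not tested.

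Channel partners outside the Kcn symbols were read from a list of 19 genes. In hypothalamus 12 of them held 48 regions, of which 5 were called in MOR-LPS minus SAL-LPS (2 higher and 3 lower, where 2.63% and 1.68% of all regions were called) and 4 in MOR-LPS minus MOR-SAL (1 and 3, where 2.33% and 1.51% were). In striatum 16 held 260 regions with 3 called in MOR-LPS minus SAL-LPS, where 1.96% of all regions were called higher and 0.365% lower. In hypothalamus the promoter of Lrrc55, a BK gamma subunit, fell by 28.9 ± 8.84 points (adjusted p = 0.0381, and 0.0487 in lists of equal length). A region of Kctd16, a GABA-B receptor partner, rose by 34.7 ± 10.5 (adjusted p = 0.0363, and 0.0416). Against MOR-SAL a region 10.2 kb from Amigo1, a partner of Kv2 channels, fell by 34.7 ± 10.1 (adjusted p = 0.029, and 0.0325). The promoter of Dpp10, a Kv4 partner, was lower against both groups (−36.8 ± 10.3 and −39.0 ± 10.3) with an interaction of −57.3 ± 15.4 (adjusted p = 0.0314), and did not pass in lists of equal length. Regions of Dpp6, also a Kv4 partner, were lower in hypothalamus (−34.2 ± 10.9) and striatum (−33.6 ± 8.77 and −26.5 ± 6.94), again without a call in lists of equal length.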

How the data were processed

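Before deposit the authors used Trim Galore (0.6.7) for trimming, Bowtie2 (2.4.5) for alignment to the mm10 build, SAMtools (1.15.1) for alignment files and, library by library, MACS2 (2.2.7.1) for peaks, with a q-value limit of 0.05. The deposited peak lists give each peak's fold enrichment (a ratio to background), its −log10 p and its −log10 q, with no read counts, so the sequencing depth behind a peak is unknown and the number of peaks stands in for it. By the paper's account, the consensus regions per brain region were built with DiffBind 3.10.1 from peaks in at least 50% of samples. The paper then kept those with enough reads in most samples of any condition. A region could therefore enter through a single group where it was high. In the lists used here, the median striatal region had a peak in 40.0% of libraries.

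Of 174 lists, 172 were used: 2 hippocampus SAL-LPS lists (male 1-2 and male 5-2) held identical peaks and were counted as 1 sample, and a PFC SAL-SAL list of 4371 peaks was left out. A PFC library labelled MOR-LPS female 12-2 carries peak names of 12-0 and was used as labelled. The 32 input samples were not analysed here, and values of a few single genes are not reported here. No per-sample column was left unmapped.

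Regions were ranked within each library by the −log10 p of the strongest peak that overlapped by at least 1 bp. Ranks of all regions were fitted with limma 3.58.1 (R 4.3.3, trended variance, group and sex) with Benjamini-Hochberg adjustment over all regions of a comparison. Promoters (1 kb around each TSS) were ranked over 21829 genes and fitted with brain region, treatment and sex. Each library is 1 animal and brain region, and p-values treat libraries as independent although animals share litters and brain regions. Ranks, overlaps and figures were made in Python 3.11.15 with pandas 2.3.3, numpy 2.4.6 and scipy 1.17.1. The fits were tested on simulated data with known differences.

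Named regions were all those called in a treatment comparison (at most 30 per brain region), else up to 3 of smallest p. Named genes were the 8 promoters of highest median rank per brain region, the 8 called promoters of largest difference each way per pair, up to 5 genes with the most or widest regions, and the GIRK, glial and axonal genes. The members and lists were chosen with earlier results of these data known. The alternatives were lists of equal length, a stricter q, fold enrichment as score, the summit inside the region, nearest TSS alone, wider promoters, terms for list length and marker shares, blocks by possible litter or animal, and leaving out each library. A term for the form of peak names, lane L007 alone, promoters without a peak at 0 and leaving out oligodendrocyte-marked libraries were chosen after seeing the data.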

Additional observations from a re-analysis of the deposited data

Results flagged for a closer look

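Dixon's test was read in 64 groups of 4 to 10 libraries at the called Kcn regions described here. In 9 groups the gap from 1 library to the nearest other was above the 95% limit. For normally spread values chance gives about 1 in 20 groups. In hypothalamus MOR-LPS male 13-2 had a rank of 88.9 at the intergenic Kcnd3 region, against 5.52 to 44.1 in the other libraries of its group. The other 8 were in striatum. In all but the last of them, the named library alone of its group had a peak. The rest had the level of regions without a peak in their lists. In the last, the named library alone lacked a peak. Dixon's limit and its rate do not hold for such values. Female 15-0 of MOR-SAL stood high at 3 regions, with 75.8 near Kcnrg and 63.2 and 80.9 at the Kcnip1 introns. Male 8-0 of MOR-SAL had 58.2 at the Kcnk13 promoter region, where the others had 25.3 to 36.4. Female 9-4 of SAL-SAL, an oligodendrocyte-marked library, had 92.0 and 75.1 at 2 Kcnk13 introns, against 19.9 to 41.6 in the others. Female 9-2 of SAL-SAL had 69.9 at the Kcnma1 intron, against 21.1 to 41.6. Male 3-2 of SAL-SAL was low, with 37.7 at another Kcnk13 intron against 74.8 to 92.6.

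The LPS difference in hypothalamus depended on the perinatal treatment at 6 Kcn regions by limma's interaction term. The values were −81.8 at Kcnb2, −62.9 near Kcnj5, −63.7 at the intergenic Kcnd3 region, −50.3 at the Kcnip4 promoter, −52.2 near Kcnc4 and 47.6 at the Kcnma1 intron. In lists of equal length Kcnb2 and Kcnj5 passed, and the other 4 did not.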

How the results depend on the processing

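Over 43 combinations of a called Kcn region and a comparison, 478 refits gave 0 reversals of direction, 290 kept the call and 188 lost it. Requiring the summit inside the region lost 0 of 43 calls, fold enrichment lost 1, a stricter q lost 19, a term for list length 12, lists of equal length 33, marker terms 35 and leaving out oligodendrocyte-marked libraries 32, and the cause was not tested. In striatum, lists of equal length left many regions without a peak in a whole group, so few calls could pass there. With the number before the dash as a replicate block, the 43 calls held and the counts in the 5 comparisons with calls were 12, 7 and 6 in hypothalamus and 15 and 4 in striatum. The block correlation was 0.0336 in PFC, 0.00141 in hippocampus, −0.0159 in hypothalamus, −0.00143 in striatum and 0.0185 between brain regions with the animal as replicate block, where the promoter counts were 30, 30, 30, 47, 54 and 61 in the order of the next paragraph.

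In hypothalamus MOR-LPS minus SAL-LPS (11 calls) gave 3 in lists of equal length, 7 with a term for list length, 1 with marker terms, 1 in lane L007 and 4 without oligodendrocyte-marked libraries. MOR-LPS minus MOR-SAL (7) gave 0 in lane L007 and 4 by nearest TSS alone. The interaction (6) gave 2 in lists of equal length, 3 at the stricter q, 2 with marker terms, 0 in lane L007 and 2 without oligodendrocyte-marked libraries. SAL-LPS minus SAL-SAL (0) gave 1 with marker terms and 1 with a term for the form of peak names. In striatum MOR-LPS minus SAL-LPS (15) gave 0 in lists of equal length, 7 at the stricter q, 23 with a term for list length, 0 with marker terms and 0 without oligodendrocyte-marked libraries, and MOR-LPS minus MOR-SAL (4) gave 0, 1 with the term for list length, 0 and 0. Promoters of striatum against hypothalamus (28) gave 8 in lists of equal length and 48 with marker terms, and against hippocampus (30) 9 in lists of equal length. With promoters without a peak at 0, PFC against striatum (46), hippocampus (53) and hypothalamus (60) gave 17, 25 and 33, and with marker terms the last 2 gave 28 and 29. Most counts of this section stand without the share over all regions or promoters. They do not show whether Kcn genes moved apart from other genes.

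Leaving out 1 library gave 3 to 17 calls for MOR-LPS minus SAL-LPS in hypothalamus, 4 to 13 for MOR-LPS minus MOR-SAL, 2 to 10 for the interaction and 0 to 2 for SAL-LPS minus SAL-SAL (2 without SAL-LPS female 10-0). In striatum it gave 0 to 33 and 0 to 6. In hypothalamus the highest of the first 3 counts came without MOR-LPS male 13-2, and the lowest without male 14-4, shared with male 14-0 for MOR-LPS minus MOR-SAL and the interaction. The interaction also fell to 2 without MOR-SAL female 16-3, SAL-LPS female 10-2, or SAL-SAL female 4-1 or 9-4. The striatal MOR-LPS minus SAL-LPS count was 0 without MOR-LPS female 15-3, 16-0, 16-2 or 7-1, male 14-4, or SAL-LPS female 10-0, 10-2 or 4-4, and 33 without MOR-LPS female 12-2. The striatal MOR-LPS minus MOR-SAL count was 0 without MOR-SAL female 16-1. Peak lists without read counts limit the precision, since a region without a peak and one just under the peak threshold cannot be told apart.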
